A study of Mus musculus with 6 samples.

Results

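The CCN proteins are a family of secreted matricellular proteins, which sit in the extracellular matrix and signal to cells without being part of its scaffold. 5 CCN genes were followed in newborn mouse cortex, taken from the table by symbol: Cyr61 (Ccn1), Ctgf (Ccn2), Nov (Ccn3), Wisp1 (Ccn4) and Wisp2 (Ccn5), 1 entry each among 23016 entries. Cerebral cortex was dissected at postnatal day 0 from 3 Fezf2 KO pups (Fezf2-/-) and 3 wild type pups (Fezf2+/+), all from crosses between heterozygotes. 1 library of total RNA was made from each brain, with 44978380 to 52872577 gene reads per library. Libraries 1 and 2 of each genotype were from litter m1, and library 3 of each from litter m2. The family was chosen with the difference of Ctgf between these genotypes already known, so the differences of its members are given as a description and support nothing.

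CCN proteins are built from modules shared with other secreted proteins: an insulin-like growth factor binding domain, a von Willebrand factor type C domain, a thrombospondin repeat and, in all members but Wisp2, a carboxy-terminal cystine knot. They bind integrins, heparan sulfate proteoglycans and low-density lipoprotein receptor-related proteins, and they modify how growth factors such as TGF-beta, BMPs and VEGF act. Ctgf and Cyr61 are textbook target genes of the Hippo pathway, switched on by YAP and TAZ together with TEAD transcription factors, and both also respond to TGF-beta and to SRF. In mouse cortex Ctgf is a marker of subplate and layer 6b neurons, and it is also made by blood vessels and meninges.

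Promoter sequence from RefSeq was matched for 1 of the 5 members, Cyr61. It is shown because no other member was matched. Cyr61 and Ctgf are the family's standard readouts of YAP and TEAD, and their transcripts behaved differently here. Without a Ctgf window their promoters could not be compared, so the sequence says nothing about that difference. The window covers 250 bases before the annotated start and 50 bases after it (GRCm38.p6, chr3:145649936-145650235, minus strand). Capitals mark, in order, a match to the TEAD motif GGAATG read on the opposite strand, the TATA box TATAAA, and the SMAD box GTCTG read on the opposite strand.

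Cyr61 promoter: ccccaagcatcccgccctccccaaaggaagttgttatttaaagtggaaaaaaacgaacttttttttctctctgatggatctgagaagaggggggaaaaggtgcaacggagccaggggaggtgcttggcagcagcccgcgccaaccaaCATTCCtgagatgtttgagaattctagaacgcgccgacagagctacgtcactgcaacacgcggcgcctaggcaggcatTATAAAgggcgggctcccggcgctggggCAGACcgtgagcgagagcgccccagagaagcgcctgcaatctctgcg

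The TEAD match begins 103 bases and the TATA box 25 bases before the start. All motifs were searched on both strands and none of these matches overlapped another. Of 32851 RefSeq windows of this length, 14.7% held the TEAD motif, 13.6% the TATA box and 49.6% the SMAD box, so the last is common by its shortness. The E-box CACGTG, held by 7.15% of windows, and the CArG box bound by SRF, held by 1.63%, were not in these letters.

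Libraries were checked first. Fezf2 had 1989, 1377 and 1533 normalised read counts in Fezf2 KO libraries 1, 2 and 3, against 5030, 5928 and 5396 in wild type libraries 1, 2 and 3, so the genotypes did not overlap. Which stretch of Fezf2 the mutation removes was not stated, so the remaining reads check the labels by level alone. The 6 listed cortical neuron markers, among them Neurod2 and Tbr1, summed to 95455 to 102413 in Fezf2 KO and 94105 to 99681 in wild type. The sum does not stand for each marker. Of the 6, 1 was lower and 0 were higher in Fezf2 KO without overlap, against 6.85% and 7.6% of all entries tested. 2 libraries stood apart by markers of tissue next to the cortex. Choroid plexus markers summed to 9786 in Fezf2 KO 1, against 143 and 144 in the other Fezf2 KO libraries and 72.2 to 133 in wild type. Of these 6 markers 2 were higher and 0 lower in Fezf2 KO without overlap. Of these 2, Ttr had 8950, 65.6 and 68.0 in Fezf2 KO libraries 1, 2 and 3, against 9.45 to 15.7 in wild type. Meningeal fibroblast markers summed to 16044 in wild type 1, against 1928 and 3291 in the other wild type libraries and 2715 to 3904 in Fezf2 KO. Striatal neuron markers summed to 3341, 7619 and 4528 in Fezf2 KO libraries 1, 2 and 3, against 9999, 8166 and 7141 in wild type libraries 1, 2 and 3. In bulk tissue, fewer cells of a type and less RNA per cell cannot be told apart.

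**Figure D1:**
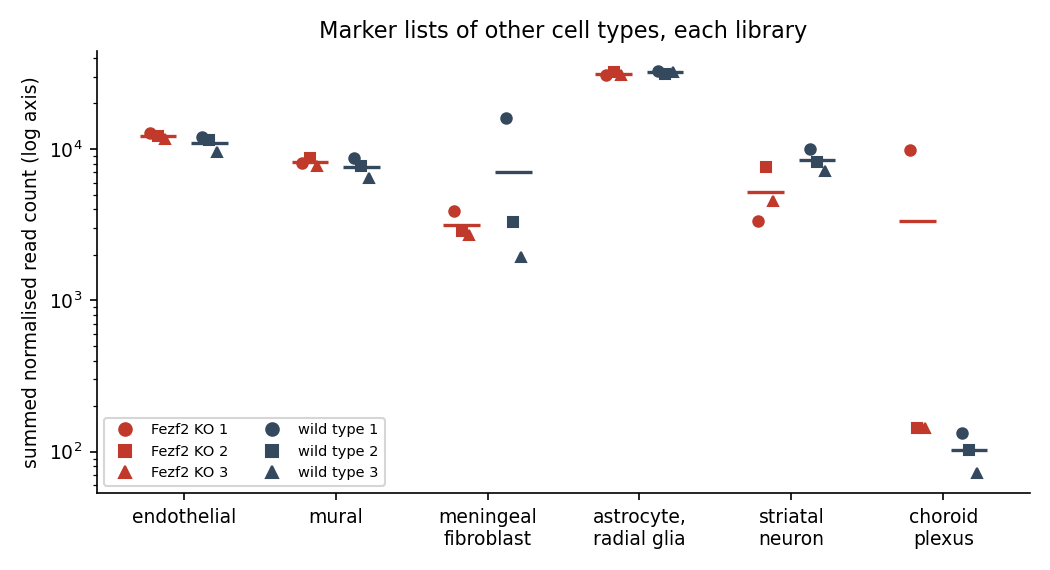
Summed normalised read counts (log axis) of marker genes of 6 other cell types, each point 1 library and each line a genotype mean of 3 libraries. Choroid plexus markers reached 9786 in Fezf2 KO 1 alone, and meningeal markers reached 16044 in wild type 1 alone.

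Ctgf encodes connective tissue growth factor, which binds TGF-beta and BMPs and promotes matrix deposition. It lies at chr10:24595442-24598683 on the plus strand (GRCm38, GENCODE M21) in 5 exons. Ctgf had 328, 501 and 618 normalised read counts in Fezf2 KO libraries 1, 2 and 3, against 1550.45, 1106 and 1554 in wild type libraries 1, 2 and 3. Each Fezf2 KO library lay below each wild type library. The means were 482 ± 146 in Fezf2 KO and 1403 ± 258 in wild type (SD, n = 3 each), a log2 difference of -1.57 (95% interval -2.09 to -1.04) on the log2(value + 1) scale. In litter m1 the means were 415 in Fezf2 KO and 1328 in wild type (log2 -1.69), and in litter m2 the single libraries differed by log2 -1.33.

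Ctgf was the 1 member of 5 that passed the fit over all genes (limma, Benjamini-Hochberg adjusted p under 0.05), and 0.712% of the 17557 entries tested passed it. Since the family was chosen on this contrast, nothing is read from that count. The call depended on single libraries: limma's adjusted p was 0.0508 without Fezf2 KO 2, 0.08 without wild type 1 and 0.117 without wild type 3. Without both libraries that stood apart, Fezf2 KO 1 and wild type 1, an alternative chosen after seeing the data, the log2 difference was -1.23 (limma adjusted p = 0.0667).

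Markers of the other cells known to make Ctgf were set beside it. Endothelial markers summed to 11682 to 12821 in Fezf2 KO and 9591 to 11952 in wild type, and mural cell markers to 7716 to 8733 in Fezf2 KO and 6405 to 8690 in wild type, so both sums overlapped between genotypes. The meningeal sums given above overlapped too, with the highest in wild type 1. The median log2 was 0.13 for the endothelial, 0.12 for the mural and -0.67 for the meningeal list. Of 10 endothelial markers tested 3 were higher and 1 was lower in Fezf2 KO without overlap, and of 8 mural markers 2 were higher and 0 lower. Of 7 meningeal markers tested 0 were higher and 0 lower without overlap. Among all entries tested, 7.6% were higher and 6.85% lower in Fezf2 KO without overlap. Over the 8 marker lists of cells other than subplate neurons 65 genes were tested and 0 passed limma, against 0.712% of all entries tested. Before adjustment 18 of the 65 had limma p under 0.05. The calls were 0 by edgeR and 2 by DESeq2, Fibcd1 of the hippocampal and Penk of the striatal list. Without Fezf2 KO 2 limma called 5 striatal markers lower, and without Fezf2 KO 1 it called Ttr of the choroid plexus list higher (log2 2.33, adjusted p = 0.0173). None of these lists' markers was at 0 in any library. Of 10 striatal markers 9 had p under 0.05 before adjustment, and 6 were lower in Fezf2 KO without overlap. The part of these cell types in the values of Ctgf was not tested.

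The table also holds an assembled noncoding entry named linc-Ctgf-AS. It had 56.8, 94.3 and 111 normalised read counts in Fezf2 KO libraries 1, 2 and 3, against 269, 198 and 263 in wild type libraries 1, 2 and 3. It was thus lower in each Fezf2 KO library (log2 -1.51, 95% interval -2.08 to -0.93), and as for Ctgf the lowest library was Fezf2 KO 1 within Fezf2 KO and wild type 2 within wild type. As a share of the Ctgf value it was 17.3%, 18.8% and 18.0% in Fezf2 KO libraries 1, 2 and 3, against 17.4%, 17.9% and 16.9% in wild type libraries 1, 2 and 3, so the ratio of the entries overlapped between genotypes although both levels differed about as much as each other. The deposited table gives no coordinates for the entry. In GENCODE M21 a noncoding gene, Gm15270, runs on the opposite strand across Ctgf (chr10:24549441-24597108), and 665 of its exonic bases, 32.4% of them, lie in Ctgf exons, which is 23.2% of the exonic bases of Ctgf. Whether the libraries kept strand is not stated, so reads of Ctgf and of a transcript antisense to it cannot be told apart.

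**Figure D2:**
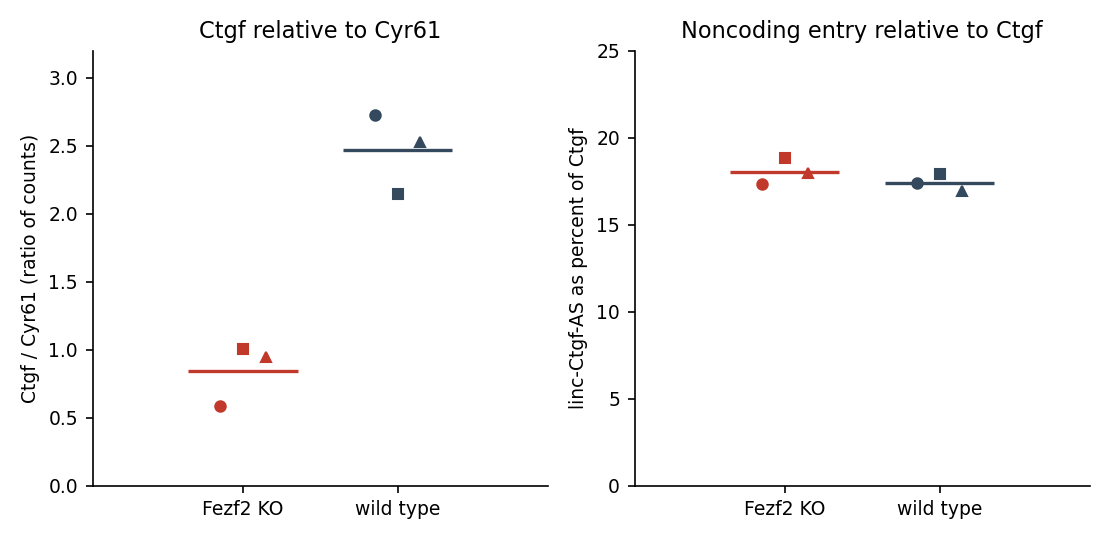
Left, the ratio of Ctgf to Cyr61 normalised read counts in each library; right, linc-Ctgf-AS as a percentage of Ctgf; points are libraries and lines are means of 3. The Ctgf to Cyr61 ratio was at most 1.004 in Fezf2 KO and at least 2.14 in wild type, whereas the share of linc-Ctgf-AS was 16.9% to 18.8% in all 6 libraries.

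Cyr61, an angiogenic CCN protein that binds integrins on endothelial cells and fibroblasts, lies at chr3:145646976-145649981 on the minus strand. It had 563, 499 and 652 normalised read counts in Fezf2 KO libraries 1, 2 and 3, against 568, 516 and 614 in wild type libraries 1, 2 and 3. The genotypes overlapped fully. The log2 difference was 0.01 with a 95% interval of -0.26 to 0.28, that is, a ratio of Fezf2 KO to wild type between 0.835 and 1.21. Cyr61 had 3899 reads over the 6 libraries, and the part of counting error in this interval was not tested.

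The ratio of Ctgf to Cyr61 within a library does not depend on the size factor of that library. It was 0.583, 1.004 and 0.949 in Fezf2 KO libraries 1, 2 and 3, against 2.73, 2.14 and 2.53 in wild type libraries 1, 2 and 3. These are ratios of counts, not corrected for gene length, and they did not overlap between genotypes. The ratio of Ctgf to Nov was 0.417, 0.252 and 0.436 in Fezf2 KO libraries 1, 2 and 3, against 0.814, 0.766 and 1.04 in wild type libraries 1, 2 and 3, again without overlap.

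A second assembled noncoding entry carries the name of a member, linc-Cyr61-BP. It had 9.74, 13.5 and 14.1 normalised read counts in Fezf2 KO libraries 1, 2 and 3, against 26.2, 19.2 and 29.2 in wild type libraries 1, 2 and 3. All Fezf2 KO values were below all wild type values, as were those of 6.85% of the entries tested, and the entry did not pass limma (log2 -0.94, 95% interval -1.55 to -0.33, adjusted p = 0.255). It rests on 12 to 34 reads per library. As a share of Cyr61 it was 1.73% to 2.70% in Fezf2 KO and 3.72% to 4.76% in wild type, so this entry and the gene in its name did not keep a constant ratio.

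Nov, a CCN protein that slows proliferation of many cell types and binds Notch1 and connexin 43, lies at chr15:54745702-54754039 on the plus strand. It had 788, 1986 and 1417 normalised read counts in Fezf2 KO libraries 1, 2 and 3, against 1904, 1442 and 1501 in wild type libraries 1, 2 and 3. The Fezf2 KO libraries held both the lowest and the highest value of the 6, so the genotypes overlapped (log2 -0.30, 95% interval -0.97 to 0.37). The sign of the difference rested on Fezf2 KO 1: without that library it was 0.07. The coefficient of variation was 42.9% in Fezf2 KO and 15.6% in wild type. The log2 SD of Nov in Fezf2 KO, 0.67, was above that of 97.8% of the entries tested, whose median was 0.11.

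In Fezf2 KO, Nov and the striatal marker sum ran in the same order, lowest in Fezf2 KO 1 and highest in Fezf2 KO 2. In wild type both were highest in wild type 1, but Nov was lowest in wild type 2 and the striatal sum lowest in wild type 3. The part of striatal tissue in the values of Nov was not tested.

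Wisp1 and Wisp2 were named as Wnt-inducible secreted proteins. Wisp1 lies at chr15:66891320-66923201 on the plus strand and had 20.3, 22.4 and 25.6 normalised read counts in Fezf2 KO libraries 1, 2 and 3, against 34.6, 22.7 and 20.6 in wild type libraries 1, 2 and 3. Its values overlapped (log2 -0.15, 95% interval -0.74 to 0.43), and the highest, in wild type 1, came from the library with the most meningeal markers. That value rested on 37 reads, with an exact Poisson interval of 24.4 to 47.7. The part of meningeal tissue in the values of Wisp1 was not tested. Without wild type 1 the log2 difference was 0.07. Wisp2, which lacks the cystine knot, lies at chr2:163820861-163833146 on the plus strand and had 5.68, 10.8 and 16.8 normalised read counts in Fezf2 KO libraries 1, 2 and 3, against 6.55, 9.60 and 11.2 in wild type libraries 1, 2 and 3.

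Wisp2 rested on 7 to 19 reads per library, and the exact Poisson interval of its lowest value, 5.68 in Fezf2 KO 1, was 2.28 to 11.7, which holds every other value of the gene but that of Fezf2 KO 3. Its log2 difference of 0.17 had a 95% interval of -0.76 to 1.11. In ratios of Fezf2 KO to wild type this spans 0.590 to 2.16, so a difference of Wisp2 within that range is not excluded. Of the 4 members other than Ctgf, 0 passed limma, 0 had p under 0.05 before adjustment, and 0 were called by edgeR or by DESeq2. Limma called 0.712% of all entries tested. A further CCN gene of the table, Wisp3, lay outside the chosen set and was added after its values were seen, with 37.1 to 43.0 in Fezf2 KO and 35.6 to 39.5 in wild type.

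**Figure D3:**
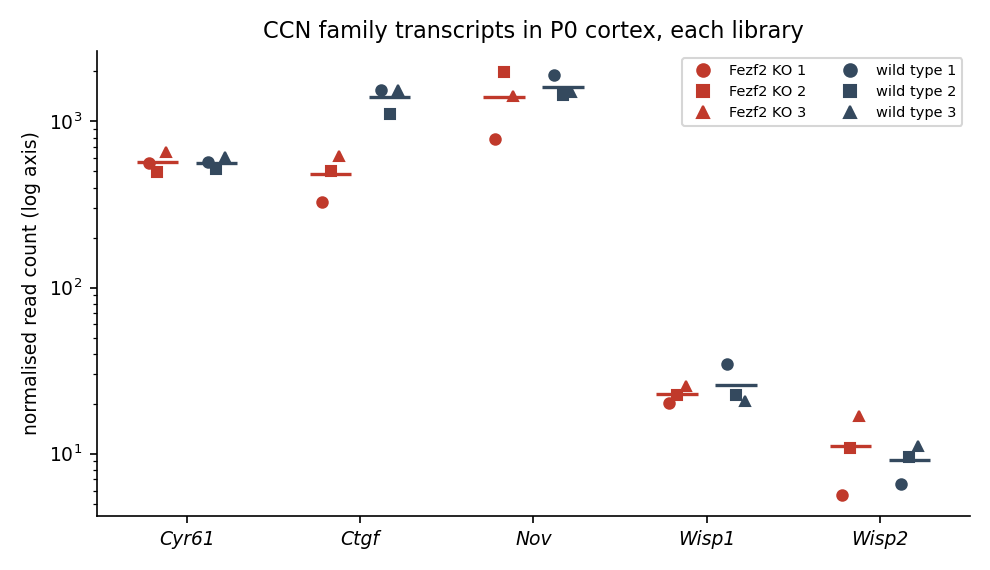
Normalised read counts (log axis) of the 5 CCN genes in each library, Fezf2 KO left of wild type for each gene; lines are means of 3 libraries. Ctgf is the gene whose genotypes do not overlap (328 to 618 in Fezf2 KO, 1106 to 1554 in wild type), and Nov spreads from 788 to 1986 within Fezf2 KO.

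**Figure D4:**
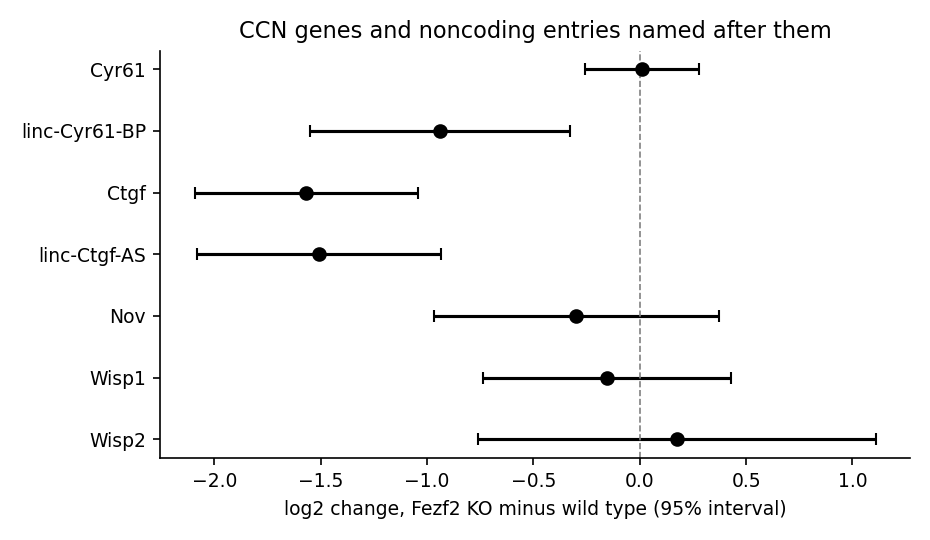
Log2 difference, Fezf2 KO minus wild type, with its 95% interval from limma, for the 5 CCN genes and the noncoding entries named after a member. Ctgf (-1.57) and linc-Ctgf-AS (-1.51) lie side by side, Cyr61 (0.01) lies at 0, and Wisp2 has the widest interval of the 7.

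Levels of different genes were compared per kilobase of coding sequence (0.753 kb for Wisp2 and 1.044 to 1.137 kb for the others). On this scale the order in Fezf2 KO was Nov (1316 ± 565), Cyr61 (502 ± 67.3), Ctgf (462 ± 140), Wisp1 (20.7 ± 2.43) and Wisp2 (14.7 ± 7.38), and in wild type it was Nov (1522 ± 237), Ctgf (1344 ± 247), Cyr61 (498 ± 43.1), Wisp1 (23.6 ± 6.86) and Wisp2 (12.1 ± 3.12) (SD, n = 3 each). Cyr61 and Ctgf differed by less than their spread in Fezf2 KO, as Wisp1 and Wisp2 did, and as Nov and Ctgf did in wild type. Reads of untranslated sequence may be counted too, and levels per transcript length were not worked out. Transcripts have 2869 bases for Nov, 2398 for Ctgf, 2019 for Cyr61, 5097 for Wisp1 and 1719 for Wisp2. The order of Nov and Ctgf in wild type, and of Wisp1 and Wisp2, thus depends on the length used. Library by library, per kilobase of coding sequence, Ctgf was below Cyr61 in Fezf2 KO 1 and above it in the other 5 libraries. Nov was first in all but wild type 3, where Ctgf was. Wisp1 and Wisp2 were far below the other members in every library. Of the summed normalised counts of the 5 genes, Ctgf made up 16.6% to 22.7% in Fezf2 KO libraries and 35.7% to 42.0% in wild type libraries.

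Genes whose values followed those of a member most closely over the 6 libraries were taken from 12285 named genes with a mean of at least 50. With so few libraries many genes come close: 64 had a Pearson r of at least 0.95 with Ctgf, 22 with Cyr61 and 79 with Nov. Nearest to Ctgf were Bcat2, a mitochondrial branched-chain amino acid aminotransferase (r = 0.999), Bbs2, a BBSome subunit of the cilium (r = 0.992), and Hs3st6, a heparan sulfate sulfotransferase (r = 0.991). Bcat2 had 650, 714 and 747 normalised read counts in Fezf2 KO libraries 1, 2 and 3, against 888, 837 and 895 in wild type libraries 1, 2 and 3, the same order of libraries as Ctgf in a narrower range. Nearest to Cyr61 were Sdc1, which encodes the heparan sulfate proteoglycan syndecan 1 (r = 0.992), Mtfr1 (r = 0.989) and Tmtc3 (r = 0.989). Nearest to Nov were Gda, guanine deaminase (r = 0.994), Prdm10 (r = 0.993) and Gmpr, guanosine monophosphate reductase (r = 0.992). These are descriptions over 6 libraries that share their scaling and, for Ctgf, the split by genotype.

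Of the 14 subplate and layer 6b genes other than Ctgf, 4 fell and 0 rose by limma (edgeR called 4, and DESeq2 called 4 lower and 2, Nr4a2 and Gabra5, higher), with a median log2 of -0.31, against 0.308% lower and 0.404% higher among all entries and a median of 0.0025. This list was put together with the results for several of its genes known, so its direction is not independent evidence. Cplx3, a complexin of the synaptic release machinery, had 60.1, 52.1 and 67.1 normalised read counts in Fezf2 KO libraries 1, 2 and 3, against 289, 400 and 444 in wild type libraries 1, 2 and 3. Nxph4, a neurexin ligand, fell by 0.97 on the log2 scale (limma adjusted p = 0.00237), Tmem163, a zinc transporter, by 0.60 (limma adjusted p = 0.0203) and Trh, thyrotropin releasing hormone, by 1.20 (limma adjusted p = 0.0445). Not all subplate genes were lower. Nr4a2, an orphan nuclear receptor, had 7521, 7117 and 7392 in Fezf2 KO libraries 1, 2 and 3, against 5595, 5562 and 3348 in wild type libraries 1, 2 and 3, all higher in Fezf2 KO but short of the threshold (limma adjusted p = 0.237). Gabra5, a GABA-A receptor subunit, was likewise above wild type in each Fezf2 KO library (limma adjusted p = 0.0879). The number of subplate falls was 2 or 3 without any 1 library, 2 of them without Fezf2 KO 1 and wild type 1 together, and without wild type 3 Nr4a2 was called higher.

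Receptors of CCN proteins did not pass the test in either direction (0 of 15, median log2 0.03), against 0.712% of all entries tested. The receptor with the highest level was Lrp1, an endocytic receptor of Ctgf, with 14795 to 17739 in Fezf2 KO and 13354 to 16402 in wild type. The integrin subunit genes Itgav, Itgb1, Itgb5 and Itga6 overlapped between genotypes, with log2 differences of 0.00 to 0.03. Itgam (log2 -0.39), Itga5 (-0.13), Itgb3 (0.17), Itgb2 (0.19) and Itga2b (0.26) overlapped as well. Of the 15 receptors 1 was lower and 0 were higher in Fezf2 KO without overlap, against 6.85% and 7.6% of all entries tested. Of 9 binding partners 0 passed (median log2 -0.09). Fn1, fibronectin, was the highest, with 2691 to 3526 in Fezf2 KO and 1914 to 3968 in wild type. Gja1, the connexin 43 gene, had 541 to 812 in Fezf2 KO and 835 to 1719 in wild type (limma adjusted p = 0.479), and its highest value was that of wild type 1, the library with the most meningeal markers. The part of meningeal tissue in the values of Gja1 was not tested.

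The Hippo pathway and the YAP and TEAD genes did not pass either (0 of 15, median log2 0.03), against 0.712% of all entries tested. Before adjustment 4 of the 15 had limma p under 0.05. In Fezf2 KO 1 was lower and 3 were higher without overlap, against 6.85% and 7.6% of all entries tested. Yap1 had 777 to 857 in Fezf2 KO and 779 to 967 in wild type, and Tead1 had 809 to 968 in Fezf2 KO and 782 to 968 in wild type, so both overlapped. Wwtr1, which encodes TAZ, had 1410 to 1446 in Fezf2 KO and 1520.04 to 1614 in wild type without overlap (log2 -0.15, limma adjusted p = 0.491). Nf2, the Merlin gene upstream of the kinases, had the highest level. It had 15214 to 15801 in Fezf2 KO and 14354 to 14914 in wild type without overlap (log2 0.08, limma adjusted p = 0.64). Lats2, a kinase that restrains YAP and is itself a YAP target, had 1564, 1542 and 1683 in Fezf2 KO libraries 1, 2 and 3, against 1308, 1273 and 1330.28 in wild type libraries 1, 2 and 3. It did not pass limma (log2 0.29, adjusted p = 0.11) and was called by DESeq2.

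Of 19 YAP and TEAD target genes other than CCN genes, 1 fell and 0 rose by limma, with a median log2 of -0.13. Among all entries tested 0.308% fell and 0.404% rose. The gene that fell was Igfbp3, an insulin-like growth factor binding protein whose amino-terminal domain resembles that of CCN proteins. It had 1772, 1707 and 1785 normalised read counts in Fezf2 KO libraries 1, 2 and 3, against 2575, 2651 and 2674 in wild type libraries 1, 2 and 3 (log2 -0.59, SE 0.05, limma adjusted p = 0.00252). The replicates of each genotype were close together and far from the other genotype, and the call held without any 1 library, with limma adjusted p from 0.00832 to 0.0197, and was lost in litter m1 alone (0.0629). The classical targets Amotl2 (log2 0.09), Axl (-0.13) and Crim1 (-0.16) overlapped between genotypes, and Ankrd1 had at most 2 reads in any library and was not tested. Genotypes did not overlap for 3 lower and 2 higher members of the list, where 6.85% and 7.6% of all entries did not overlap in these directions.

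TGF-beta ligands, receptors, Smads and targets had 0 of 12 genes past the test (median log2 0.06), with Smad4, the common mediator of the pathway, at 3626 to 3996 in Fezf2 KO and 3429 to 3693 in wild type. Of 7 genes of SRF and its MRTF cofactors 0 passed (median log2 -0.05). Mkl1, which encodes the cofactor MRTF-A, had 5141 to 5345 in Fezf2 KO and 4888 to 5453 in wild type. Over these 5 lists without a call, 57 genes were tested, where limma called 0.712% of all entries tested. Of the 57, 7 had limma p under 0.05 before adjustment, and the calls were 0 by edgeR and 1, Lats2, by DESeq2. Among 9 Wnt target genes 1 rose and 0 fell (median log2 -0.03), where 0.404% rose and 0.308% fell among all entries tested. The gene that rose was Sp5, a zinc finger transcription factor induced by Wnt signalling. Sp5 had 322, 414 and 301 in Fezf2 KO libraries 1, 2 and 3, against 185, 175 and 131 in wild type libraries 1, 2 and 3 (log2 1.08, SE 0.17, limma adjusted p = 0.0393). Its call was lost without each of the 6 libraries in turn, with limma adjusted p from 0.0573 to 0.0965. Axin2, the most used Wnt readout, had 2195, 2575 and 2336 in Fezf2 KO libraries 1, 2 and 3, against 1959, 1900.48 and 1987 in wild type libraries 1, 2 and 3, without overlap and short of the threshold (limma adjusted p = 0.176). Of the 9 Wnt targets, edgeR called 1 and DESeq2 called 2 higher. In Fezf2 KO 3 were higher and 0 lower without overlap, against 7.6% and 6.85% of all entries tested.

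**Figure D5:**
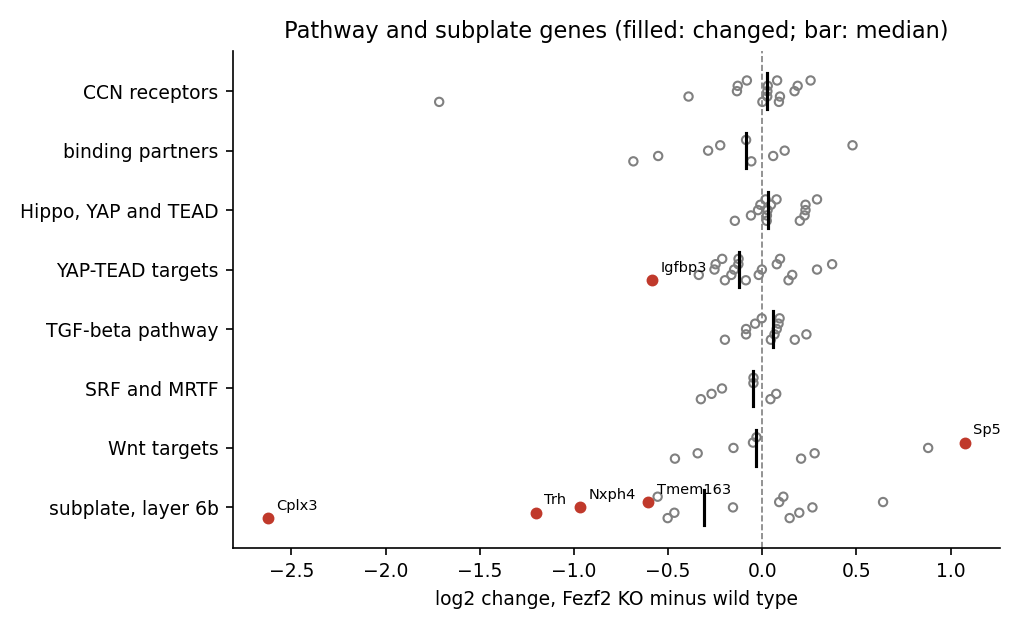
Log2 difference, Fezf2 KO minus wild type, of each tested gene of 7 CCN-related lists and of the subplate list; filled points passed limma over all entries, bars are list medians. Calls outside the subplate list were Igfbp3 (-0.59) and Sp5 (1.08).

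The genes next to each member in the mouse genome (RefSeq, GRCm38.p6, used for order alone) were looked up, 20 in all. 11 were in the table and 10 were tested, of which 0 passed limma, against 0.712% of all entries tested. Of these 10, 2 had limma p under 0.05 before adjustment, and 0 were called by edgeR or by DESeq2. After Ctgf come Enpp1, with 16.8 to 18.9 in Fezf2 KO and 13.8 to 56.1 in wild type, and Enpp3, with 27.8 to 45.0 in Fezf2 KO and 19.8 to 36.5 in wild type. Both ectonucleotidase genes overlapped between genotypes, as did all but 14.5% of the entries tested. Next to Cyr61, Ddah1 had 4661 to 5250 in Fezf2 KO and 5102 to 6003 in wild type.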

How the data were processed

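Per the labels, total RNA from each cortex was made into an Illumina TruSeq library. Bowtie, STAR and DESeq, and mm9 as the genome build, are named in the submitters' processing notes; settings and strand are not stated there. The deposited signal was made by the authors from gene read counts scaled with 1 size factor for each library, not by gene length. The value of 1 read was 0.812 to 0.936, and 100% of values were whole multiples of it within 0.01, which gave back whole reads. A count of 0 allows up to 3 reads; intervals cover counting error only. Chi-square per degree of freedom was 8.86 or more for any 2 libraries, so none repeated another.

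Entries reaching 10 in 3 or more libraries were tested (17557, all 5 members among them) with limma 3.58.1 (R 4.3.3) on log2(value + 1), with a variance trend, genotype as the term and Benjamini-Hochberg adjustment over all entries. 125 passed at 0.05, and edgeR on the recovered whole reads called 121. The method was tested on simulated data. Members, lists and rules were chosen with earlier results of these data known. Named genes were the members, noncoding entries named after them, Fezf2, neighbours, genes nearest by Pearson r, and from each list up to 3 called genes or the one with the highest mean; others were chosen after their values were seen. Coding lengths are from GENCODE M21. Alternatives were a pseudocount of 0.5, no filter, edgeR 4.0.16, DESeq2 1.42.0, litter as a block, litter m1 alone and each library left out. Litter comes from the labels: deviations from the genotype mean correlated between -0.137 and 0.223 for the 5 same-litter pairs, against -0.162 to -0.038 for the 4 other pairs, across genes, which are not independent. Proteins were not analysed here, and 2 list genes are not reported by name.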

Additional observations from a re-analysis of the deposited data

How the results depend on the processing

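The lower value of Ctgf in Fezf2 KO kept its direction in all 14 alternatives. Its log2 difference was -1.69 in litter m1 alone and -1.23 without Fezf2 KO 1 and wild type 1 together, neither past the threshold, and it ranged from -1.77 to -1.31 with 1 library left out, where the number of members called was 0 to 1. In litter m1 alone and without both libraries 0 members were called. The entry linc-Ctgf-AS had -1.64 in litter m1 alone, -1.15 without both libraries and -1.71 to -1.23 with 1 left out, with limma adjusted p of 0.0338 without Fezf2 KO 1 and 0.0541 to 0.171 without each other library. Genes changed numbered 403 by DESeq2, 29 in litter m1 alone, 57 without both libraries and 61 to 119 with 1 left out; fewer libraries alone can lower a count. With litter as a replicate block 138 genes changed, Ctgf among them (log2 -1.57, limma adjusted p = 0.0198), and 3 subplate genes fell in place of 4; the block changed no other call of a named list.

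Log2 differences that changed sign belonged to genes without a call. In litter m1 alone they were -0.030 for Cyr61, -0.012 for Wisp2, -0.067 for Fn1 and -0.013 for Notch3. Without both libraries they were 0.19 for Nov, 0.14 for Wisp1, 0.11 for Igf2, -0.031 for Mpped1 and -0.012 for Neurod2. With 1 library left out they ranged from -0.090 to 0.10 for Cyr61, -0.60 to 0.07 for Nov, -0.29 to 0.07 for Wisp1, -0.16 to 0.55 for Wisp2, -0.16 to 0.36 for Fn1, -0.76 to 0.33 for Igf2, -0.0100 to 0.14 for Lrp1, -0.003 to 0.13 for Mpped1, -0.0087 to 0.17 for Neurod2, -0.032 to 0.12 for Notch3 and -0.028 to 0.12 for Vim. The cause was not tested. The order of the genotype means was the same without division by coding length and as shares of library totals. Within Fezf2 KO 3 the undivided values were 618 for Ctgf and 652 for Cyr61, the reverse of their order per kilobase. Depth limits Wisp1 and Wisp2, with 24 to 37 and 7 to 19 reads per library.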
